A study of Mus musculus with 76 samples.

Results

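The cytochrome P450 genes of families 1 to 4 were measured in liver and visceral white adipose tissue (WAT) of mice homozygous for the C allele of Fnip2 (Fnip2 C/C, written C/C here) or for its T allele (Fnip2 T/T, written T/T). The genes were taken by symbol, as Cyp followed by a family number from 1 to 4, a subfamily letter and a gene number, and symbols of pseudogenes were left out. The rule found 63 of the 20295 genes listed for either tissue, 61 of the 16775 genes in liver and 25 of the 18964 in WAT, with 23 listed for both. In liver, 3 belonged to family 1, 37 to family 2, 8 to family 3 and 13 to family 4, whereas WAT had 2, 13, 0 and 10. All mice were females on a C57BL/6 background, bred from heterozygous parents and given standard chow ad libitum, and the age of the sequenced mice is not given in the sources used here. T/T mice carried the ancestral allele, and C/C mice carried a T-to-C change knocked into the 3′UTR of Fnip2 with Cas9, together with 1 further substitution that destroyed the PAM, so that the effects of both changes cannot be told apart. Fnip2 encodes a folliculin-interacting protein of the mTORC1 pathway. Messenger RNA was read near its 3′ end (QuantSeq) in 5 C/C and 5 T/T livers and in 4 C/C and 5 T/T WAT samples, and 6 mice gave both tissues.

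Cytochrome P450 enzymes are haem proteins of the endoplasmic reticulum that insert oxygen into lipophilic molecules with electrons from P450 reductase (Por) and cytochrome b5. Families 1 to 3 oxidise drugs, toxins, steroids, bile acids and retinoids, and the receptors AHR, CAR and PXR induce many of them, whereas family 4 enzymes hydroxylate fatty acids and eicosanoids and include targets of PPARA. Hepatocytes are the main site of most of these enzymes, and several mouse genes differ between the sexes under the control of growth hormone.

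Values are normalized counts, that is reads divided by 1 factor per library, and per-mouse values are given in the order 590, 591, 592, 638 and 639 for C/C and 607, 608, 657, 658 and 659 for T/T livers, and in the order 590, 593, 599 and 638 against 607, 608, 609, 657 and 658 for WAT. Each transcript gives reads near its end only, so counts were compared between genes without division by length. Libraries held 5583041 to 7523200 reads in liver and 4180209 to 6277644 in WAT. Fnip2 itself had 134, 133, 174, 137 and 197 in C/C and 134, 115, 123, 98.8 and 49.2 in T/T mice in liver. The difference over all livers was 0.63 on the log2 scale (exact two-sided permutation p = 0.0159), and 1 T/T liver lay above the lowest C/C value. Without T/T mouse 659 the difference was 0.39, given without a test. In WAT the Fnip2 values of 24.7, 30.9, 21.7 and 14.1 in C/C and 33.6, 26.3, 14.5, 42.6 and 24.3 in T/T mice overlapped throughout, with a difference of -0.27 (exact permutation p = 0.452). Since the edit changes bases of the 3′UTR, these levels do not check the genotype labels. The columns of both tables are laid out by even, then odd RNA numbers, which separates C/C from T/T exactly in WAT and mixes them in liver, so the genotype labels of the livers, on which every liver comparison rests, could not be checked here. Hepatocyte markers summed to 554059 to 758662 in the livers and to 31.6 to 258 in WAT, where adipocyte markers summed to 12281 to 51652. The WAT library of C/C mouse 593 stood apart, with ovary markers at 20004 against 11.2 to 61.4 in the other 8. Results of single P450 genes that rest on it are given with and without it. Results of the marker and pathway lists in WAT include it.

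To show how the start sites of these genes read, stretches of 30 bases from 40 to 11 bases before the start site were taken from RefSeq promoters (build GRCm38.p6), which held 51 of the 63 genes. The letters TATAAA, searched on the strand of the gene only and with no overlapping second motif, lay wholly between 40 and 20 bases before the start site in 10 of these 51 (19.6%), against 650 of 27025 genes (2.41%). The 10 were Cyp1a1, Cyp1a2, Cyp2a4, Cyp2a5, Cyp2a12, Cyp2a22, Cyp2c38, Cyp2c55, Cyp2c67 and Cyp2e1. Among genes with a mean of at least 1000 normalized counts in liver, 5 of 21 held the letters, and 5 of the 30 others did. The match is a description of letters and not of a bound site. The neighbours Cyp1a1 and Cyp1a2, the closely related pair Cyp2a4 and Cyp2a5, and Cyp2e1, the gene with the most reads in both tissues, are shown 5′ to 3′ on the strand of the gene, with the matched letters in capitals.
Cyp1a1 (plus strand): cacagagtccTATAAAggtggtggtgcctt
Cyp1a2 (minus strand): gtgggtggtgtTATAAAaggcccctcgtcg
Cyp2a4 (plus strand): tgtctctggatgTATAAAagcaagctaatt
Cyp2a5 (plus strand): gtctctggatgTATAAAagcaagctaattc
Cyp2e1 (plus strand): acgacacgtTATAAAatccttgtttctcct

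Cyp1a1 and Cyp1a2 both carried the letters, yet in liver Cyp1a1 had a mean of 1.27 normalized counts and Cyp1a2 one of 5609. Most genes lie beside relatives: runs of neighbouring genes held 12 Cyp2c genes, 11 of the Cyp2a, Cyp2b, Cyp2f, Cyp2g and Cyp2s subfamilies, 7 Cyp2d, 7 Cyp3a, 6 Cyp4f and 3 Cyp2j genes, 5 Cyp4a genes with Cyp4b1, and the pair of Cyp1a genes. Liver means within the Cyp2c run went from 10.5 normalized counts for Cyp2c55 to 7250 for Cyp2c29. Because such relatives can share reads, the last 300 bases of their GENCODE vM21 transcripts were searched for shared stretches of 50 bases, and 31 of the 62 genes with a transcript shared none with any other gene. More than 50% of the stretches were shared by Cyp3a41a, Cyp3a41b, Cyp4a12a and Cyp4a32, all of which had under 10 normalized counts in liver. Shares were 45.4% for Cyp2c67, 43.4% for Cyp2c40, 40.2% for Cyp2d10, 32.3% for Cyp2c68, 29.1% for Cyp2d11, 26.7% for Cyp2d26, 23.1% each for Cyp2c69, Cyp2d22 and Cyp3a44, 22.3% each for Cyp2a4 and Cyp4a31 and 15.6% for Cyp2a5, so the split of reads within these groups is uncertain. Cyp2e1 shared 17.3%.

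The livers expressed these genes over a range from 1.27 (Cyp1a1) to 9784 (Cyp2e1) normalized counts on average. A mean of at least 1000 was reached by 25 of the 61 genes, 15 lay between 100 and 1000, 11 between 10 and 100, and 10 below 10. Together they took 1.44%, 1.66%, 1.24%, 1.44% and 1.22% of reads in the C/C livers and 1.28%, 1.503%, 1.36%, 1.51% and 0.918% in the T/T livers. The groups overlapped, with means of 1.399 ± 0.179% and 1.31 ± 0.241% (SD, n = 5 each), and the share was lowest in T/T mouse 659 and highest in C/C mouse 591. The difference in mean log2 share, C/C minus T/T, was 0.10 and lay between -0.021 (without mouse 659) and 0.16 when 1 mouse was left out. By subfamily, Cyp2c genes took 26.3% of the reads of all these genes, Cyp2d 12.8%, Cyp2e1 10.7%, Cyp3a 8.03%, Cyp4a 7.58%, Cyp2a 7.43%, Cyp2f2 7.003% and Cyp1a 6.18%. Family 2 as a whole held 72.1%, and the 15 genes with most reads held 73.6%.

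**Figure D1:**
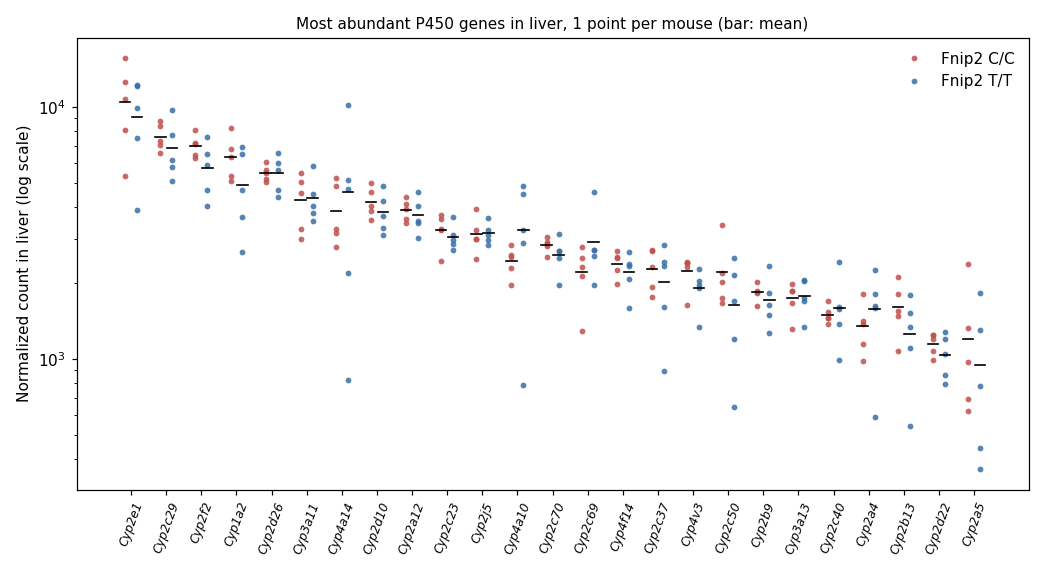
Normalized counts (log axis) of the 25 P450 genes with the highest liver means, 1 point per mouse for C/C and T/T, with black bars at the group means of 5 mice. Points of both genotypes overlap for every gene, and the vertical spread is widest for Cyp4a14, from 821 to 10132.

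The top of the order was held by enzymes of small solvents, drugs and fatty acids. Cyp2e1, which oxidises ethanol and other small molecules, had 12602, 15579, 8056, 10723 and 5306 in C/C and 7511, 12212, 9854, 12104 and 3895 in T/T mice. Cyp2c29, an arachidonic acid epoxygenase, had 7037, 8823, 6544, 8372 and 7315 in C/C and 6169.8, 7714, 5785, 9669 and 5069 in T/T mice. In both genes the lowest liver was mouse 659 and the genotypes overlapped, and the ranges of the genes overlapped as well, so that their order was not separated by the spread between mice. Cyp2f2, known for the activation of naphthalene, followed with a mean of 6367, then Cyp1a2, which oxidises caffeine and arylamines, with 5609, and Cyp2d26 with 5450.5. Cyp3a11, the main inducible drug-metabolising enzyme of its subfamily, had a mean of 4292 and a range from 2991 to 5813. Cyp4a14 and Cyp4a10, fatty acid omega-hydroxylases and PPARA targets, had 4222 and 2847. The rest of the leading 15 were Cyp2d10 (4017), the steroid hydroxylase Cyp2a12 (3811), the epoxygenases Cyp2c23 (3154) and Cyp2j5 (3139), Cyp2c70 (2706), which makes the muricholic acids of mouse bile, Cyp2c69 (2549) and Cyp4f14 (2297), a leukotriene hydroxylase.

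Smaller subfamilies were led by Cyp2b9 (1773), Cyp4v3 (2068), a fatty acid hydroxylase, Cyp2u1 (112), Cyp2r1 (74.0), a vitamin D 25-hydroxylase, Cyp4b1 (58.8), Cyp2g1 (27.3), best known from olfactory mucosa, Cyp1b1 (3.02) and Cyp2s1 (1.76). At the bottom, Cyp1a1, which rises when AHR is activated, had 0.902, 2.72, 0.912, 0 and 2.11 in C/C and 1.89, 0, 1.22, 1.1 and 1.86 in T/T mice, so no fold is given. Genes below a mean of 10 were not tested, and 10 of the 61 fell there.

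No gene of these families differed by genotype in liver at an adjusted p under 0.05 (limma): 0 of 51 tested, against 0.0% of the 11710 genes tested. At an unadjusted p under 0.05 there was 1 of 51, Cyp2b10, higher in C/C, against 1.97% of all genes in either direction and 1.03% in that one, and edgeR's and DESeq2's tests on recovered reads also left 1 each and called none. In none of the 51 did all mice of one genotype lie above all of the other, where 0.248% of all genes did (0.111% with C/C higher). The difference was above 0, that is higher in C/C, in 36 of 51 genes (70.6%), against 51.8% of all genes. It was below 0 in 15, and its median was 0.13 against 0.0072 over all genes tested. Without T/T mouse 659, 27 of 50 lay above 0, and no share over all genes is given here for that fit. The 95% interval stayed within 1 log2 unit in either direction in 40 of 51 genes (78.4%), against 91.1% of all genes, so a change of more than 1 log2 unit lies outside the intervals of those 40 and not of the other 11.

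**Figure D2:**
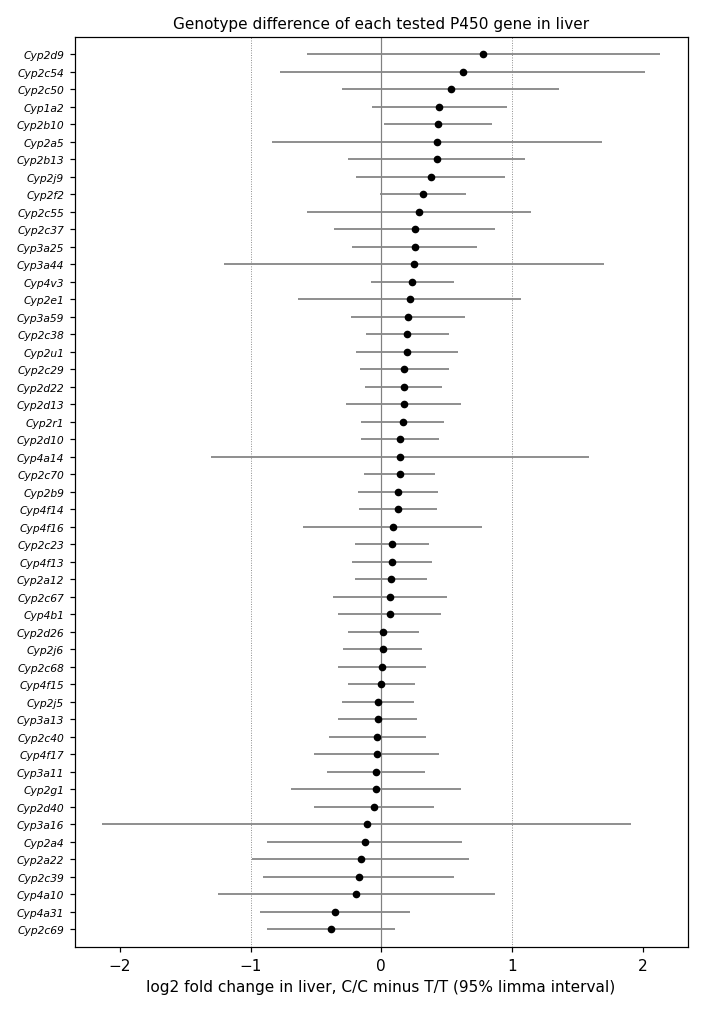
Difference between C/C and T/T livers for each of the 51 tested P450 genes, as log2 fold change (x axis) with its 95% limma interval, ordered by size. Points lie between -0.38 and 0.78, and all intervals but that of Cyp2b10 include 0.

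The 6 genes with the lowest p in liver differed by less than the test could separate. Cyp2b10, the classical CAR target, had 364, 335, 275, 529.7 and 499 in C/C and 325, 205, 245, 381 and 317 in T/T mice. The groups overlapped, with a difference of 0.43 (95% interval from 0.020 to 0.85), an exact permutation p of 0.119 and an adjusted p of 1. Its relatives Cyp2b9 and Cyp2b13 differed by 0.13 and 0.42. Cyp2f2 had 6415, 7113, 7157, 6238 and 8067 in C/C and 7589.6, 6479, 4695, 5887 and 4032 in T/T mice. Both of the lowest livers, 657 and 659, were T/T, and the difference was 0.32 (exact permutation p = 0.135), or 0.20 without mouse 659. Cyp1a2 had 6773, 8237, 5082, 6328 and 5296 in C/C and 6478, 4682, 3665, 6898 and 2651 in T/T mice. Here again 657 and 659 were lowest, with a difference of 0.44 (exact permutation p = 0.167) that was 0.25 without mouse 659.

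Cyp2c69, one of the Cyp2c genes with higher levels in females, was the only one of the 6 that was lower in C/C, with 2514, 1291, 2122, 2304 and 2769.9 in C/C and 2707, 4577, 2696, 2551 and 1955 in T/T mice. T/T mouse 608 was highest and C/C mouse 591 lowest, and the difference was -0.38 (exact permutation p = 0.262). Cyp4v3 had 2389, 2406, 1632, 2426 and 2316 in C/C and 1914, 2029, 1954, 2269.7 and 1339 in T/T mice. C/C mouse 592 lay below the other 4 of its group, and the difference was 0.24 (exact permutation p = 0.175). Cyp2j9, a low member of an epoxygenase subfamily, had 16.2, 22.6, 14.6, 15.5 and 10.6 in C/C and 10.4, 12.4, 12.2, 9.88 and 13.9 in T/T mice. The groups overlapped in the lowest C/C mouse, 639, with a difference of 0.38 (exact permutation p = 0.0714). The smallest p that 252 groupings of 5 against 5 mice can give is 0.00794.

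Many of these genes varied widely from liver to liver. The SD of log2 values over the 10 livers had a median of 0.372 in the 51 genes, against 0.283 over all genes and 0.207 over the 891 genes at or above the median level of these genes. It was lowest for Cyp4f15 (0.163) and Cyp2d26 (0.176). It was highest for Cyp3a16, a gene of fetal and neonatal liver, at 1.47, with 37.0, 0.905, 20.1, 20.7 and 4.22 in C/C and 56.6, 8.60, 4.88, 6.59 and 9.28 in T/T mice. Cyp2d9, a steroid hydroxylase higher in male liver, had an SD of 0.987 and values of 135, 525, 247, 243 and 547 in C/C and 185, 216, 326, 239 and 49.2 in T/T mice. C/C mice 591 and 639 were high and T/T mouse 659 was low, and the other values of both genotypes were mixed. Cyp3a44, which is higher in female liver, went the other way in mouse 591, at 488, 117, 238, 344 and 214 in C/C and 442, 342, 165, 318 and 52.9 in T/T mice. Cyp2c54 (0.984), Cyp4a14 (0.963) and Cyp2a5 (0.870), the coumarin hydroxylase, completed the 6 widest.

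T/T mouse 659 had the lowest value of the 10 livers in 30 of the 51 genes (58.8%), against 13.0% of all genes tested. C/C mouse 591 had the highest in 12 (23.5%), against 15.2%. The low values of mouse 659 spanned subfamilies: Cyp4a14 stood at 821 where the other 9 livers had 2189.6 to 10132, Cyp2c54 at 129 where they had 476 to 1526, and Cyp2e1 at 3895 where they had 5306 to 15579. Its hepatocyte markers summed to 650754, inside the range of the other livers, and its total of 6897043 reads was inside theirs too. No share over all genes is given here for the fit without this mouse. In that fit 5 P450 genes had an unadjusted p under 0.05 and none was called. Among them Cyp4a10 differed by -0.64, where its difference with all mice was -0.19. Mouse 659 was singled out by its low values in these same genes, Cyp4a10 among them. The p-values of the fit without it are therefore no separate test.

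**Figure D3:**
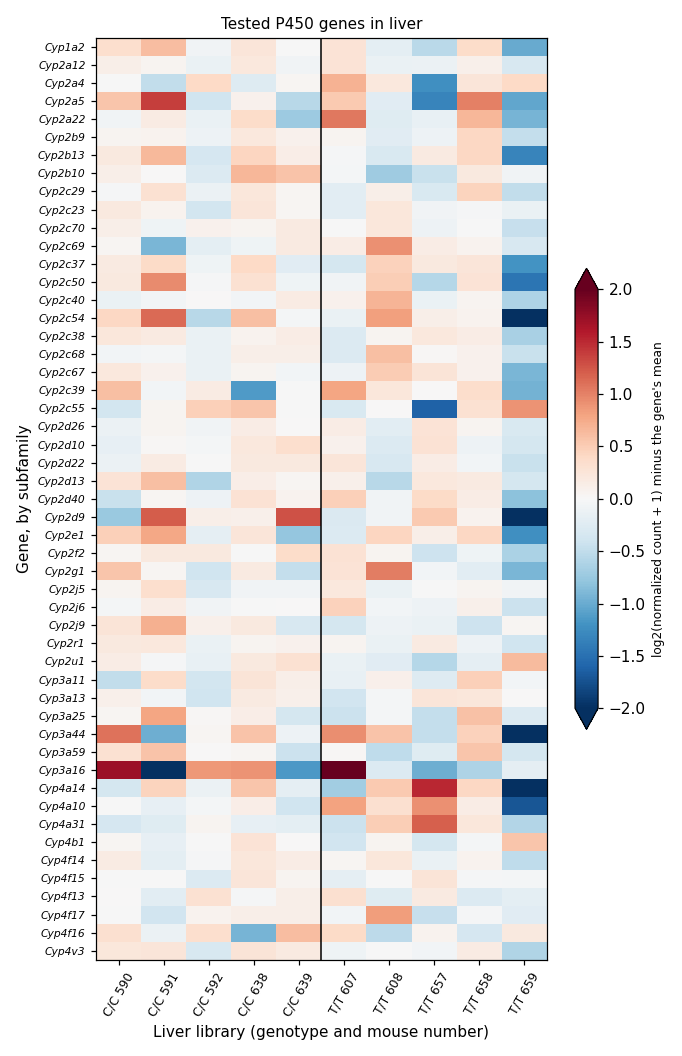
Each row is 1 of the 51 tested P450 genes and each column 1 liver, with C/C mice left of the line and T/T mice right of it. Colour gives log2(normalized count + 1) minus the mean of the gene over the 10 livers, and mouse 659, the rightmost column, has the lowest value in 30 genes.

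Pairs of genes that share a regulator or a run of neighbours, or that are higher in opposite zones of the liver lobule, were compared over the 10 livers. These were 6 correlations with p-values adjusted over the 6, and no Pearson correlation passed 0.05. The PPARA targets Cyp4a10, with 2571, 2299.7, 2525, 2826 and 1967 in C/C and 4515, 3231, 4868, 2874 and 789 in T/T mice, and Cyp4a14, with 2777, 4842, 3258, 5216 and 3147 in C/C and 2189.6, 5102, 10132, 4734 and 821 in T/T mice, gave Pearson's r of 0.75 (permutation p = 0.0249, adjusted p = 0.0748) and Spearman's rho of 0.49 (permutation p = 0.155, adjusted p = 0.251). Mouse 657 was highest and mouse 659 lowest in both genes, and without these r was -0.27, so the relation rests on them. Cyp4a14 and Acot1, a thioesterase under the same receptor, gave r of 0.70 (permutation p = 0.0233, adjusted p = 0.0748) and rho of 0.50 (permutation p = 0.144, adjusted p = 0.251). That r was 0.82 on values centred within genotype (permutation p = 0.00689, adjusted p = 0.0413) and 0.14 without mice 657 and 659.

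Cyp2b9 and Cyp2b10, neighbours in 1 run of genes, gave Pearson's r of 0.58 (permutation p = 0.073, adjusted p = 0.146) and Spearman's rho of 0.87 (permutation p = 0.00191, adjusted p = 0.0115). On centred values rho was 0.78 (permutation p = 0.011, adjusted p = 0.0662), and without mice 658 and 659 r was 0.93 (exact permutation p = 0.000446, adjusted p = 0.00268). The CAR and PXR targets Cyp2b10 and Cyp3a11 gave Pearson's r of 0.35 (permutation p = 0.321, adjusted p = 0.482) and Spearman's rho of 0.48 (permutation p = 0.168, adjusted p = 0.251), and r was 0.44 without mice 608 and 638. Cyp2e1, higher around the central vein, and Cyp2f2, higher around the portal vein, gave Pearson's r of 0.28 (permutation p = 0.447, adjusted p = 0.537) and Spearman's rho of -0.05 (permutation p = 0.892, adjusted p = 0.892), and r was -0.14 without mice 639 and 659. For Cyp1a1 and Cyp1a2 the comparison was void, as Cyp1a1 reached at most 2.72 normalized counts.

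The genes that serve P450 enzymes or share their regulators gave no call in liver either, in any of the 10 lists: electron transfer (0 of 5 tested), haem synthesis and breakdown (0 of 11), receptors and liver transcription factors (0 of 14), targets other than P450 of AHR (0 of 2), of CAR and PXR (0 of 4) and of PPARA (0 of 13), female-biased genes (0 of 5), male-biased genes (0 of 6), P450 families above 4 (0 of 12) and partners in vitamin D and fatty acid epoxide metabolism (0 of 2). Since 0 of all 11710 genes tested in liver were called, these counts say nothing particular about the lists. At an unadjusted p under 0.05, as were 1.97% of all genes, stood only the male-biased Hsd3b5, a steroid dehydrogenase, at 18.1 ± 6.87 against 4.38 ± 2.19 normalized counts (log2 difference 1.86), and Slco1a1, an organic anion transporter, at 367 ± 112 against 184 ± 96.7 (1.16). Hsd3b5 was a low gene. The median difference of the male-biased list was 0.65 and that of the female-biased list -0.20, against 0.0072 over all genes. These medians rest on 6 and 5 genes, were not tested, and are not given without T/T mouse 659.

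In WAT the same genes took far fewer reads, 0.0321%, 0.0213%, 0.0233% and 0.0251% in C/C and 0.0933%, 0.0325%, 0.0306%, 0.0602% and 0.0501% in T/T mice, where shares rather than normalized counts set the tissues side by side because their tables were normalized separately. The T/T share of mouse 609 lay below that of C/C mouse 590, and the other 4 lay above every C/C share. The difference in mean log2 share, C/C minus T/T, was -0.96, between -1.13 and -0.73 when 1 mouse was left out. Cyp2e1 alone held 51.3% of these reads, and no family 3 gene was listed. Means were between 100 and 1000 normalized counts for 5 genes, between 10 and 100 for 9 and under 10 for 11, and the 14 at or above 10 were tested.

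Of these 14, 7 passed an adjusted p under 0.05 (50%), where 32.1% of the 12798 genes tested did. The same 7 had an unadjusted p under 0.05, against 43.9% of all genes. Lower in C/C were 5 (all genes 17.0%), Cyp2e1, Cyp4v3, Cyp4b1, Cyp2j6 and Cyp2u1, and higher were 2 (all genes 15.1%), Cyp4f13 and Cyp2s1. All mice of one genotype lay above all of the other in 3 of 14, where 26.1% of all genes did so. The median difference of the 14 was -0.15 against 0.019 over all genes. Cyp2e1 stood at 577, 102, 339 and 442 in C/C and 2741, 652, 577, 1668 and 1221 in T/T mice. C/C mouse 590 and T/T mouse 609 met at 577, and no other C/C mouse reached the lowest T/T value. The difference was -1.92 (95% interval from -3.13 to -0.70, adjusted p = 0.0227, exact permutation p = 0.0238). Without mouse 593 it was -1.39 (adjusted p = 0.0407), and without T/T mouse 657 the adjusted p was 0.0538 at a difference of -1.78.

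Cyp4v3 had 103, 56.2, 116 and 80.8 in C/C and 157, 165, 271, 206 and 163 in T/T mice. The groups did not overlap, and the difference was -1.12 (95% interval from -1.64 to -0.60, adjusted p = 0.00466, exact permutation p = 0.00794, the smallest that 126 groupings allow). Cyp4b1, which hydroxylates medium-chain fatty acids, had 16.5, 4.68, 24.9 and 22.3 in C/C and 58.3, 26.3, 36.8, 58.5 and 80.3 in T/T mice. These groups did not overlap either, with a difference of -1.66 (95% interval from -2.64 to -0.68, adjusted p = 0.0149, exact permutation p = 0.0159), and mouse 593, at 4.68, was the lowest. Without it the differences were -1.17 for Cyp4b1 (adjusted p = 0.0271) and -0.92 for Cyp4v3 (adjusted p = 0.0111).

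Cyp2j6, of the same subfamily as Cyp2j5 and Cyp2j9, had 29.4, 40.2, 26.0 and 49.2 in C/C and 80.4, 58.4, 49.1, 75.4 and 90.2 in T/T mice. C/C mouse 638 and T/T mouse 609 met at about 49.1 to 49.2, and the difference was -0.96 (adjusted p = 0.0154, exact permutation p = 0.0238). Cyp2u1, a hydroxylase of long-chain fatty acids, had 76.4, 47.7, 52.0 and 24.6 in C/C and 103, 95.3, 128, 84.3 and 60.6 in T/T mice. Its groups overlapped between 60.6 and 76.4, with a difference of -0.96 (adjusted p = 0.0317, exact permutation p = 0.0317), and it lost the call when any of 6 mice (C/C 599 and 638, T/T 607, 608, 609 and 657) was left out.

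Cyp4f13, of a subfamily of eicosanoid hydroxylases, was the higher gene with no overlap, at 128, 153, 126 and 162 in C/C and 73.0, 89.5, 77.0, 65.4 and 92.5 in T/T mice. Means were 142 ± 18.0 against 79.5 ± 11.3 (SD, n = 4 and 5), and the difference was 0.83 (95% interval from 0.44 to 1.23, adjusted p = 0.00511, exact permutation p = 0.00794), or 0.80 without mouse 593. Cyp2s1, found in epithelia outside the liver, had 30.6, 75.8, 43.4 and 39.8 in C/C and 23.8, 18.5, 15.6, 27.8 and 31.1 in T/T mice. Mouse 593 was by far the highest, and the difference of 0.95 (adjusted p = 0.0352, exact permutation p = 0.0238) was 0.70 without it (adjusted p = 0.103), which ended the call. It also lost the call without any of 5 other mice (C/C 599 and 638, T/T 607, 608 and 609). Without mouse 593, 6 of 15 genes were called, as Cyp2j9 also reached the minimum mean. No share over all genes is given here for that fit, so the 6 are not set against a background. Over the whole WAT table, 3010 to 4273 genes were called with 1 mouse left out.

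**Figure D4:**
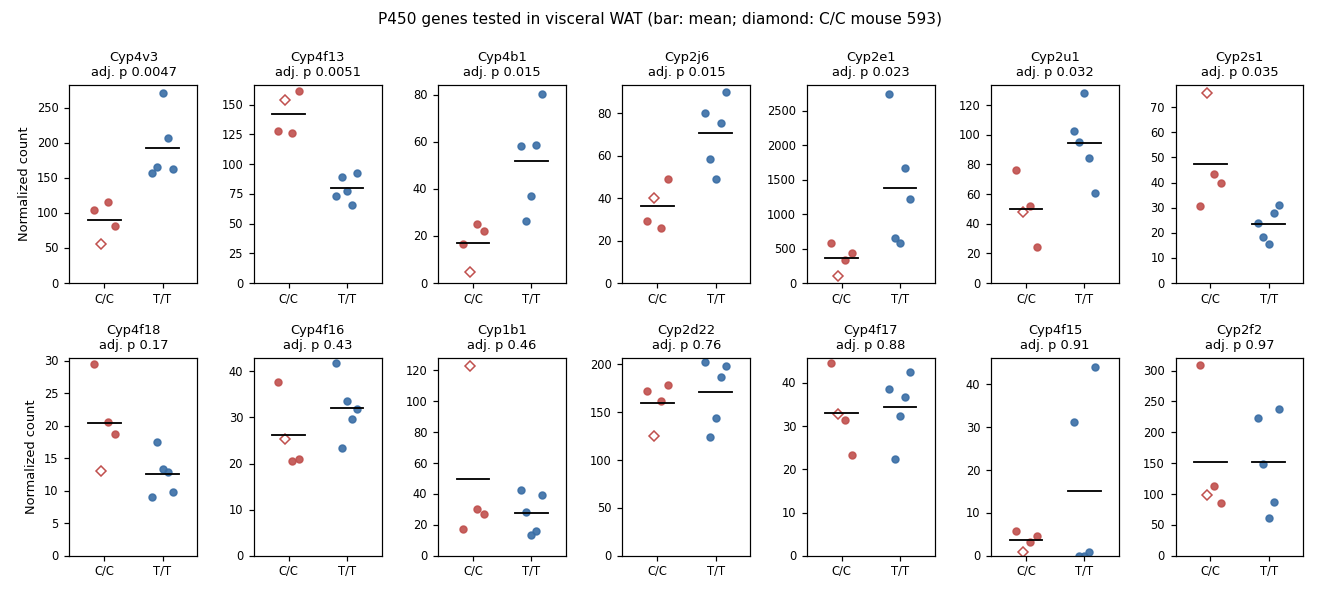
Normalized counts in WAT of the 14 tested P450 genes, 1 point per mouse, with bars at the means of 4 C/C and 5 T/T mice, an open diamond for mouse 593 and the adjusted p of limma above each panel. The upper row holds the 7 called genes, of which Cyp4v3, Cyp4f13 and Cyp4b1 show no overlap of the genotypes.

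The 7 genes that did not pass included the next most abundant after Cyp2e1. Cyp2d22 had 172, 125, 162 and 178 in C/C and 203, 124, 144, 186 and 198 in T/T mice, with a difference of -0.089 (95% interval from -0.52 to 0.34). Cyp2f2 had 308, 98.3, 114 and 85.5 in C/C and 223, 148, 61.4, 87.3 and 237 in T/T mice, with a difference of -0.024 and a wide interval from -0.99 to 0.94. Cyp1b1, an oestrogen and retinoid hydroxylase of stromal cells, stood at 123 in mouse 593 and at 13.4 to 42.7 in the other 8, and its difference of 0.52 became -0.050 without that mouse. The others, Cyp4f15, Cyp4f16, Cyp4f17 and Cyp4f18, differed by -0.22, -0.30, -0.063 and 0.65.

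Some markers of cell types differed by genotype in WAT, where 17.0% of all genes tested were called lower in C/C and 15.1% higher. Of 6 adipocyte markers 4 were lower in C/C (Adipoq -1.20, Plin1 -1.65, Lep -1.87, Lipe -1.11), and their summed level was 12281 to 34339 in C/C against 36016 to 51652 in T/T mice. Of 5 stromal progenitor markers 3 were higher, with overlapping sums (6887 to 13107 against 5348 to 10388). Of 5 endothelial markers 2 were lower (sums 1274 to 2365 against 2366 to 3640.3). Of 5 macrophage markers 1 was higher and 2 were lower (sums 2106 to 4242 against 1551 to 2849.9). Mouse 593 gave the lowest C/C sum of adipocyte and of endothelial markers, and the next C/C sums were 18074 and 1698. The part of these markers in the P450 differences was not tested, and in bulk tissue fewer cells of a type and less RNA per cell cannot be told apart. Of 6 hepatocyte markers 4 were listed and 2 tested in WAT, and albumin (Alb) was lower (-1.68, 61.1 ± 40.8 against 174 ± 49.6 normalized counts). The hepatocyte markers transthyretin (Ttr) and Apob reached at most 8.34 and 7.49 in WAT, where Ttr had 98543 to 132039 in the livers. Apolipoprotein A1 (Apoa1), the other one tested, stood at 70.2 in C/C mouse 593 and at 0 to 8.34 in the other 8, with a difference of 1.37 that was not called. Among the other lists, Kupffer cell and cholangiocyte markers had 1 lower gene each (Adgre1 -0.98, Sox9 -1.17). Sinusoidal endothelium, stellate cell, mesothelium, ovary, oviduct and pancreatic acinar markers had none. No marker of any list was called in liver, where 0 of all 11710 genes tested were.

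In WAT, where 17.0% of all genes tested were called lower in C/C, 15.1% higher and 32.1% in either direction, most genes of P450 electron transfer were lower, and the other lists had shares of called genes near or below the background. Of the 5 electron transfer genes 0 were higher and 4 lower in C/C: Cyb5a, a form of cytochrome b5, at 413 ± 179 against 1114 ± 166 normalized counts (-1.54 on the log2 scale), Cyb5r3, its reductase, at -0.80, Pgrmc1, a haem-binding partner, at -0.83, and Cyb5b, the mitochondrial form, at -0.76. Por did not pass, with a difference of -0.18. Of 11 haem genes 1 was higher and 3 were lower, not all of which are named: the biliverdin reductases Blvra (-0.86) and Blvrb (-1.73) were lower, and Hmox1 (0.85), which breaks haem down, was higher. Of 9 receptors and factors 1 was called, Nfe2l2 (0.90), the NRF2 gene, which was higher. Of 12 PPARA targets 2 were higher and 2 lower, again not all named: the carnitine carrier Slc25a20 (-1.79) was lower, and Ehhadh (1.29) and Acaa1b (0.97), enzymes of peroxisomal fatty acid oxidation, were higher. Of 8 genes in P450 families above 4, 1 was called, the sterol 27-hydroxylase Cyp27a1, which was lower (-2.31). No gene was called among 2 AHR targets, 1 CAR and PXR target, 1 female-biased gene, 1 male-biased gene and 2 vitamin D and epoxide partners.

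Whether the effect of genotype differed between the tissues was tested directly in the 11 genes tested in both. It did in 6 (54.5%), against 29.2% of 10404 genes, and the fit with the mouse as a replicate block also gave 6. The effect in WAT was lower than in liver in 5 (all genes 17.7%): by -1.36 (adjusted p = 0.00166) on the log2 scale for Cyp4v3, -1.72 (adjusted p = 0.0121) for Cyp4b1, -0.97 (adjusted p = 0.0141) for Cyp2j6, -1.15 (adjusted p = 0.0232) for Cyp2u1 and -2.13 (adjusted p = 0.0306) for Cyp2e1. It was higher for Cyp4f13, by 0.75 (adjusted p = 0.0154), where 11.5% of all genes lay. The corresponding liver differences were 0.24, 0.063, 0.010, 0.19, 0.22 and 0.081. Cyp2d22, Cyp2f2, Cyp4f15, Cyp4f16 and Cyp4f17 gave no such difference. When 1 mouse was left out 3 to 6 genes passed, and the 3 that passed without T/T mouse 607, C/C mouse 638 or T/T mouse 657 were Cyp2j6, Cyp4b1 and Cyp4v3 each time. Cyp2e1 was also lost without C/C mouse 591, C/C mouse 593 or T/T mouse 659. In share of all reads Cyp2e1 stood at 0.146% in liver and 0.0208% in WAT.

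**Figure D5:**
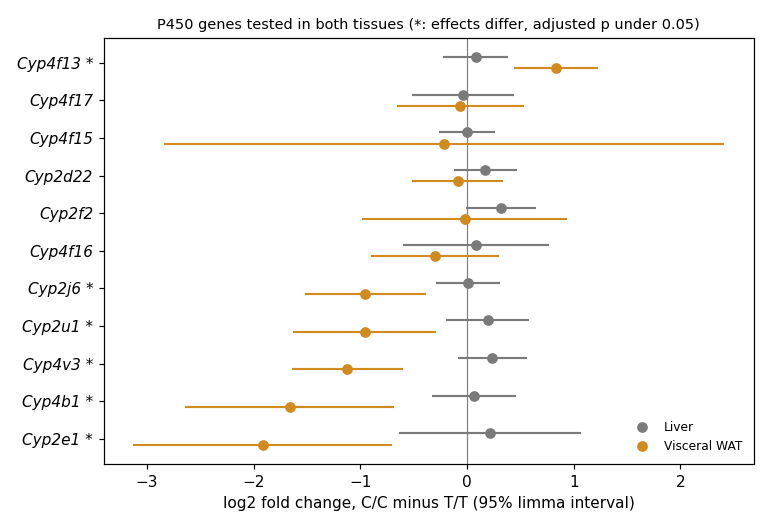
Log2 fold change between C/C and T/T mice in liver (grey) and WAT (orange) for the 11 P450 genes tested in both tissues, with 95% limma intervals. Stars mark the 6 genes whose effects differed between the tissues, and liver points stay within 0.32 of 0 while WAT points reach -1.92.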

How the data were processed

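RNA of livers (250 ng) and visceral WAT (500 ng) was sequenced as 76 run samples, 4 for each mouse, which the authors combined into 1 deposited column. Groups follow the genotype in the labels. Per the labels and the submitters' processing notes, FastQC 0.11.9, HISAT2, SAMtools 1.12, HTSeq, DESeq2 and build GRCm39 were named. The deposited signal values are counts of reads per gene, scaled by the authors with a size factor for each library, tissue by tissue. Dividing by the step of each library gave whole reads for 100% of values (largest deviation 1.8e-09). In WAT, 1 column matched no label and was not used. The columns are laid out by even, then odd RNA numbers, which separates the genotypes of the labels exactly in WAT and mixes them in liver. The labels were followed, and whether those of the livers are right, which bears on every liver comparison, could not be checked here. A term for even against odd numbers was added after seeing the data.

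Values were tested as log2(normalized count + 1) for genes with a mean of at least 10, with limma 3.58.1 in R 4.3.3 (trend and robust options), C/C minus T/T, and Benjamini-Hochberg adjustment over all genes tested. A fold change on this scale understates changes of low genes. Each tissue was fitted alone, and the difference between tissues was an interaction contrast over all libraries. Single genes were compared by exact two-sided permutation tests, and gene pairs by 100000 permutations (exact for 8 mice). Alternatives were pseudocounts of 0.5 and 10, no filter or a minimum mean of 50, quantile and total scaling, library weights, a mouse number term (under 610 or over 630), edgeR 4.0.16 and DESeq2 1.42.0 on the recovered reads, a replicate block, and each mouse left out. The fits were tested on simulated data.

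The members, 10 pathway lists, 13 marker lists and 6 pairs were chosen with earlier results of these data known. Named were, in liver, the 15 genes with the highest means, the 6 with the lowest p, the 6 with the largest SD and the leader of each subfamily, and in WAT all called genes and the 5 with the highest means. From each pathway list up to 4 genes were named, by a call in WAT or the lowest p in liver, though not every such gene is reported here. Other genes were chosen after their values were seen. Mice numbered alike in both tissues are the same animals, and the correlation within mice was -0.114. Reads are not independent molecules.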

Additional observations from a re-analysis of the deposited data

Results flagged for a closer look

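Of 86 groups of 4 or 5 mice checked for a value far from the others, 5 held one (5.81%), where chance gives about 1 in 20. In liver these were Cyp2c69 in T/T mouse 608 (4577 normalized counts, next 2707), Cyp2u1 in T/T mouse 659 (169.8, next 100), Cyp3a16 in T/T mouse 607 (56.6, next 9.28) and Cyp4v3 in C/C mouse 592 (1632, next 2316). In WAT it was Cyp2f2 in C/C mouse 590 (308, next 114). Cyp2u1 was 1 of 3 genes highest in mouse 659, with Cyp4b1 and Cyp2c55, where 30 of 51 genes were lowest.

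The effect of genotype differed between WAT and liver, by the interaction test, in 6 genes. The difference was -1.36 for Cyp4v3, -1.72 for Cyp4b1, -0.97 for Cyp2j6, -1.15 for Cyp2u1, -2.13 for Cyp2e1 and 0.75 for Cyp4f13 on the log2 scale. The first 5 were lower in C/C WAT, as were 4 of 6 adipocyte markers (all genes 17.0%). Whether the 2 sets followed each other from mouse to mouse, and the part of the markers, was not tested.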

How the results depend on the processing

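No gene was called in liver under any alternative, and the 7 calls in WAT stood between 5 and 7 under the alternatives run, with 5 to 7 when 1 mouse was left out. Cyp4f13, Cyp4v3, Cyp4b1 and Cyp2j6 kept their calls in every fit that tested them. Under the higher minimum mean, Cyp4b1 (WAT mean 36.5) and Cyp2s1 (WAT mean 34.0) were not tested, so that fit could not call them. Cyp2e1 lost its call without T/T mouse 657, and Cyp2u1 and Cyp2s1 lost theirs without any of 6 mice each. Cyp2u1 further lost it under quantile normalization (-0.84) and Cyp2s1 under scaling to the same total (0.88). Over the whole WAT table, 3010.0 to 4273 genes were called with 1 mouse left out, 4144 by edgeR and 4722 by DESeq2. The replicate block left 6 of 11 genes with a difference between tissues and changed no call, and leaving out a mouse gave 3 to 6.

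Small liver differences changed sign, none of them called, and the cause was not tested. Cyp2d26 gave -0.032 under quantile normalization, -0.0030 by edgeR and -0.017 with the term for even and odd RNA numbers. Cyp3a11 gave 0.0011 with the mouse number term. Cyp4a14 gave -0.26 by edgeR and -0.25 by DESeq2. Cyp3a16 gave 0.038 with a pseudocount of 10 and 0.43 with library weights, which gave 0.047 for Cyp2g1. With 1 mouse left out, liver differences ran from -0.057 to 0.088 for Cyp2d26, -0.063 to 0.44 for Cyp2e1, -0.28 to 0.21 for Cyp2g1, -0.11 to 0.055 for Cyp2j5, -0.14 to 0.076 for Cyp3a11, -0.55 to 0.53 for Cyp3a16, -0.25 to 0.52 for Cyp3a44, -0.64 to 0.013 for Cyp4a10, -0.37 to 0.54 for Cyp4a14 and -0.023 to 0.21 for Cyp4b1. In WAT they ran from -0.20 to 0.021 for Cyp2d22 and from -0.43 to 0.18 for Cyp2f2, and the difference in log2 share of liver reads from -0.021 to 0.16. Of the 6 Pearson correlations 0 passed the threshold, 1 on centred values and 1 without the pair of mice farthest from the median, where r was -0.27 for Cyp4a10 and Cyp4a14 and -0.14 for Cyp2e1 and Cyp2f2. By Spearman's rho 1 passed, Cyp2b9 and Cyp2b10 (permutation adjusted p = 0.0115).

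With 5 mice a group, intervals of 11 of 51 liver genes reached 1 log2 unit, so a change of that size lies inside them. The intervals of the other genes hold smaller changes. Reads split between relatives with alike ends are uncertain. In WAT, cell makeup and genotype cannot be told apart in these samples.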
